A study of Mus musculus with 40 samples.

Results

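Constitutive distal H3K27ac regions are stretches of the mouse genome that carried a peak of acetylated histone H3 lysine 27 in every library of a browning time course and that lay away from any annotated transcript start. They were chosen by peak calls. The peaks of 23 lists were merged wherever they shared at least 1 bp, and a merged region was kept when it was under 8 kb long, held a peak in all 23 lists and lay over 5 kb from the nearest transcript start of GENCODE M21 on build mm10. Of 202700 merged regions, 3951 met the rule (1.95%), which is 3.35% of the 117765 distal regions under 8 kb. The presence of a peak in every library, the length limit and the distance were used for the choice and are not findings. A strong and wide peak is found in every library more easily than a weak one, so the high ranks and large widths given below describe the choice and were not tested.

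H3K27ac was measured by ChIP-seq in primary preadipocytes from the inguinal white adipose tissue of C57BL/6 mice of 8 to 12 weeks, either wild type (WT) or Hmgn1-/- and Hmgn2-/- (DKO, which lacks both nucleosome-binding proteins). Cells were taken as preadipocytes on day 0, on days 3 and 6 of differentiation, and as brown-like adipocytes on day 9. Cells of both genotypes received insulin, dexamethasone, IBMX, T3 and rosiglitazone for 4 days and insulin with T3 thereafter. Each of the 8 groups held 3 libraries, except that DKO day 0 kept 2 here, because the list of DKO day 0 replicate 2 was left out by the rule. That list held no peak under 440 bp and a median peak of 1076 bp, against narrowest peaks of 155 to 165 bp and medians of 313 to 376 bp in the other 23. The study describes the libraries of a group as biological replicates, and the labels do not say whether they came from separate animals or cultures, so p-values measure the spread between these libraries.

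H3K27ac marks active promoters and active enhancers. Distal sites with the mark are candidate enhancers, which act on genes through contacts that can span long distances, so the nearest gene named below is a position and not a proven target. HMGN1 and HMGN2 bind nucleosomes without sequence specificity and are found preferentially at promoters and enhancers. Browning of white preadipocytes replaces part of the enhancer set of the precursor with that of a fat-burning adipocyte, and the sites described here are those at which a peak was called before, during and after that change.

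The sequences of 9 members carry the results below. The first 3 are the members with the highest median rank among peaks, the next 5 are members that moved with day or genotype, and the last is a member beside Socs3, an inhibitor of cytokine signalling, with AP-1 and RUNX letters. Each is the 200 bp around the summit of the strongest peak, read from the plus strand of the RefSeq sequence of GRCm38 (mm10). Capitals mark the letters of a searched motif on either strand.
Irf2, 51.96 kb, chr8:46687032-46687231: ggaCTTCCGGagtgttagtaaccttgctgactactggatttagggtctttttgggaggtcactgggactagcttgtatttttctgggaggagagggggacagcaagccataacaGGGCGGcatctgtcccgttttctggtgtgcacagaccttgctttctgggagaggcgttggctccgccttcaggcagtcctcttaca
Pum2, 32.4 kb, chr12:8640844-8641043: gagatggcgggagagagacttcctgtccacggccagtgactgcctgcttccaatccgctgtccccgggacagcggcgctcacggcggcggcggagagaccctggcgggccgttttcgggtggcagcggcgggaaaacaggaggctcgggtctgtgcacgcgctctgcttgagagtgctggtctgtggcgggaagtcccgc
Fth1, 22.2 kb, chr19:9954885-9955084: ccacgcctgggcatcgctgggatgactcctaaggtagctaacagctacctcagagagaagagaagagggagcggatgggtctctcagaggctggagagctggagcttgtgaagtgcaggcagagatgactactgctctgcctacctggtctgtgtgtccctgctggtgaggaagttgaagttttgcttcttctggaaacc
Per2, 11.1 kb, chr1:91436505-91436704: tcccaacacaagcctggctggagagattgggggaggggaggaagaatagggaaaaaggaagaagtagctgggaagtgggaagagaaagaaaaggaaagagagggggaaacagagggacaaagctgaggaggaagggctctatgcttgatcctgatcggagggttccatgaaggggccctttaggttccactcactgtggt
Plekho2, 17.8 kb, chr9:65541972-65542171: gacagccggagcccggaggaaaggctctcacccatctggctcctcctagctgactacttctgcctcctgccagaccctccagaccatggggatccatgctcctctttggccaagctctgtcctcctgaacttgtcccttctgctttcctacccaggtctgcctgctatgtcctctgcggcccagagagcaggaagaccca
Ide, 25.6 kb, chr19:37264345-37264544: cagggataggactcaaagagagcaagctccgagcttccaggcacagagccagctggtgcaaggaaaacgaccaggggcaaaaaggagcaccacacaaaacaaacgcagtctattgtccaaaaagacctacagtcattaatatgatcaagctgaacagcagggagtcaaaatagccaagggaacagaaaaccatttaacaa
Wasf2, 13.4 kb, chr4:133116823-133117022: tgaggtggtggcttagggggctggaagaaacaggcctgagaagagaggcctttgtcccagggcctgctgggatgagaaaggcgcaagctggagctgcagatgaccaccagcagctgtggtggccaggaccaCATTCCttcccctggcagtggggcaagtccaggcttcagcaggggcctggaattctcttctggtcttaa
Mmp2, 28.3 kb, chr8:92797890-92798089: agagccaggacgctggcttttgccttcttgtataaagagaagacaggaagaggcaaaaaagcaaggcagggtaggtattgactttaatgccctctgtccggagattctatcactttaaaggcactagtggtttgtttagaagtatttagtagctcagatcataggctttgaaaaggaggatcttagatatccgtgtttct
Socs3, 5.63 kb, chr11:117962671-117962870: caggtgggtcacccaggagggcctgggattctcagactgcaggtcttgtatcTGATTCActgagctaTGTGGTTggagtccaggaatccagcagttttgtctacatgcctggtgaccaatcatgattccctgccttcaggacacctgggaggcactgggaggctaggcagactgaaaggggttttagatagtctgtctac
The Irf2 window held an ETS match (CTTCCGG) and a GC box (GGGCGG), the Wasf2 window the TEAD letters CATTCC, and the Socs3 window an AP-1 match (TGATTCA) and a RUNX match (TGTGGTT). The other 6 windows held none of the 13 motifs. The Pum2 window had a GC content of 68.5% and a ratio of observed to expected CpG of 0.873, as is typical of CpG islands, whereas the Per2 window was 56% repeat sequence in the reference.

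Members were 269 to 7950 bp long after merging, with a median of 2172 bp and an interquartile range of 1425 to 3228 bp. Distal regions under 8 kb with a peak in fewer lists, 113814 in number and called variable distal regions below, had a median length of 336 bp, and the 15378 regions with a peak in all 23 lists within 5 kb of a start, called constitutive regions near a start, had 1574 bp. Members lay 5.001 to 286.702 kb from the nearest start of any transcript (median 15.5 kb) and a median of 25.4 kb from the nearest protein-coding start. Near a start, 18.2% of 84625 regions under 8 kb were constitutive. On either side of the limits values were alike in kind. The 5 members nearest to the 5 kb limit (5.001 to 5.016 kb) had median percentiles of 51.1 to 91.2, and the 5 regions just excluded by it (4.994 to 5 kb) had 75.3 to 98.0. The percentile of a region is the percentage of the list's peaks that lie below its strongest peak by −log10 q, the authors' measure of how far a peak stands above background, and the median is over the 23 lists. The 5 longest members (7.901 to 7.95 kb) had 81.5 to 95.8, and the 5 regions just over the length limit (8.046 to 8.129 kb) had 83.4 to 90.8.

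The number of lists in which a distal region had a peak rose together with its length and rank. The 42366 distal regions found in 1 list had a median length of 189 bp and a median percentile of 17, the 1948 found in 22 lists had 1663 bp and 66.6, and the 3951 members had 2172 bp and 79.0. Of the 1948 regions that were 1 list short, 1168 lacked a peak in DKO day 6 replicate 3 only, 119 in DKO day 3 replicate 1 and 111 in DKO day 0 replicate 1. The list that was left out was not used by the rule, and 3926 of the 3951 members (99.4%) had a peak there. The shares were 1896 of the 1948 distal regions found in 22 lists (97.3%) and 34.9% of the variable distal regions. That list is of the DKO day 0 group and held no peak under 440 bp. Long regions meet such wide peaks more easily, and the compared sets differ in length by the choice. These shares therefore do not test the choice.

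**Figure D1:**
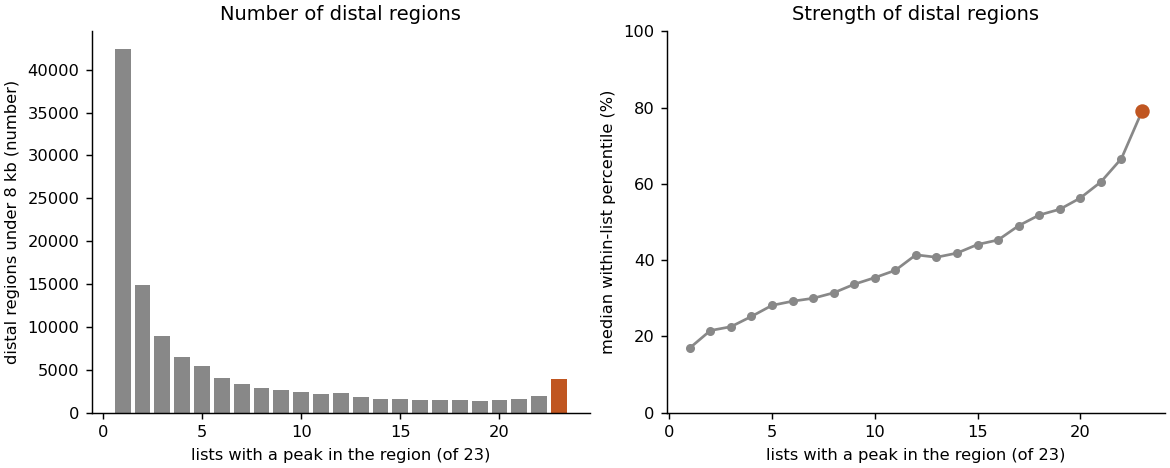
Number of distal regions under 8 kb (left axis) and their median percentile within a list (right axis) by the number of the 23 lists in which they held a peak. The 42366 regions found in 1 list had a median percentile of 17 and the 3951 found in all 23 had 79.0.

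Introns of protein-coding genes held the summits of 1902 members (48.1%), 1754 (44.4%) were intergenic, 190 (4.81%) lay in introns of other genes and 105 (2.66%) in exons. Variable distal regions were divided in nearly the same way, with 50.7%, 40.7%, 5.35% and 3.29%. Joined over gaps of up to 12.5 kb, 1967 members (49.8%) fell into 786 clusters of at least 2, of which 248 held at least 3 and 30 at least 5. The largest cluster held 11 members over 64.5 kb at chr4:150744893-150809440, with Slc45a1 and Errfi1 as nearest genes. It lay upstream of Errfi1, which encodes a feedback inhibitor of EGF receptor signalling and responds to glucocorticoids. No comparison of these clusters with other regions was made. A cluster of 8 lay beside the metalloprotease gene Adam19 (chr11:46061525-46093087), and clusters of 7 lay beside Adamts2, Socs3, Susd6, Dapk1, Ahnak and Foxk1. The Ahnak cluster also had Scgb1a1, and the Foxk1 cluster Ap5z1, among its nearest genes.

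By nearest start, members belonged to 1965 protein-coding genes, which is 8.97% of 21911 and 18.7% of the 10487 genes nearest to any distal region under 8 kb. A gene with 1 member was the usual case (1112 genes), while 427 genes had at least 3 and 145 had at least 5. Most members belonged to Dapk1, a death-associated kinase, and Lpp, a focal adhesion protein (20 each), then to Ebf1, a transcription factor of adipocyte development (18), and Irf2bp2, a transcriptional corepressor (15). Bicc1, an RNA-binding protein, the TGF-beta co-receptor Tgfbr3 and the transcription factor Zeb2 followed with 14 each. Long genes and genes in gene-poor surroundings can collect more members by nearest start. Of the 20 members assigned to Lpp, 13 lay within the gene, as did 10 of 18 for Ebf1, 5 of 20 for Dapk1 and 0 of 15 for Irf2bp2.

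Among genes nearest to any distal region under 8 kb, 18.7% were nearest to a member, and each list is given by its genes of that kind. A gene with more distal regions has a member more easily. The share of 18.7% is not matched for this, so it is a background and no measure of enrichment. Of 35 extracellular matrix genes, 21 were nearest to at least 1 member (86 members in all), among them Adamts2 with 11, Col3a1 with 10, Col5a1 with 7 and Col1a1 and Col6a2 with 6 each, genes of procollagen processing and of fibrillar and microfibrillar collagens. Of 25 adipogenic transcription factors, 13 had 75 members, with 18 for Ebf1, 11 for Nfia, a factor that opens brown adipocyte enhancers, 9 for Klf4 and 8 for Klf6, and with a single member for Pparg. TGF-beta and BMP genes had 47 members at 15 of 30 genes, 14 of them at Tgfbr3 and 10 at Tgfbr2, the type II receptor. Actin and adhesion genes had 53 members at 15 of 32 genes, 27 members lay at 8 of 13 glucocorticoid response genes, and 21 at 5 of 12 AP-1 and immediate early genes, 7 of them at Myc and 5 each at Fos and Jun. Stromal progenitor genes had 18 at 9 of 22. Adipocyte function genes had 8 members at 7 of 17 genes (Plin2, Lpl, Cd36, Scd1, Scd2, Acsl1 and Mgll), and brown adipocyte genes had 6 at 4 of 13 (Ppara with 3, and Ppargc1b, Ide and Pdk4 with 1 each). The Hippo, YAP and TEAD list had 13 at 6 of 17, the chromatin list 14 at 8 of 21, and the ribosomal protein list 8 at 6 of 36. The lists share members. Klf9, with 4, and Nr3c1, with 1, are in the adipogenic and the glucocorticoid list, and Pdk4, with 1, is in the brown and the glucocorticoid list. No test over these lists was made, and the lists were chosen with earlier results known.

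The sequence around the summit is described here without a test. The GC content of the 200 bp window had a median of 50% in members, 47% in variable distal regions and 57.5% in constitutive regions near a start. A window with the composition of a CpG island was found in 2.99% of members, 0.584% of variable distal regions and 44.7% of constitutive regions near a start, and repeat sequence made up 12.6%, 17.2% and 6.94% of bases. The motifs searched on both strands, in which N is any base and matches of different motifs may overlap, are given as the share of members and then of variable distal regions. The AP-1 letters TGANTCA were in 4.58% of members and 6.03% of variable distal regions, and the C/EBP letters TTGCNNAA in 6.25% and 7.7%. The TEAD letters GGAATG were in 12.2% and 11.9%, the RUNX letters TGTGGTT in 4.4% and 4.44%, and TTGGCA, part of the NF1 site, in 10.7% and 10.9%. The EBF letters CCCNNGGG were in 6.71% and 5.17%, the GR letters ACANNNTGT in 5.87% and 6.78%, the DR1 letters AGGNCAAAG in 1.9% and 1.66%, and the CTCF letters AGNGGGCNC in 2.51% and 2.04%. ETS letters (CCGGAAG) were in 1.62% against 0.768%, and the GC box GGGCGG in 3.85% against 2.12%, while constitutive regions near a start held these in 3.51% and 18.8%. The CRE letters TGACGTCA were in 0.0506% against 0.108%, and the NRF1 letters CGCNTGCGC in 0.0506% against 0.0764%. None of the 13 was in 53.6% of members and 53.9% of variable distal regions. A match is a description of letters and not a bound site.

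A few distal sites stood near the top of every list. The member 51.96 kb from Irf2, an interferon regulatory factor (chr8:46686700-46687772), had a median percentile of 99.96. Counted from the top of each list, it stood at positions 12, 7 and 85 in WT day 0, 34, 34 and 256 in day 3, 6, 13 and 14 in day 6 and 39, 20 and 18 in day 9. In DKO it stood at positions 94 and 19 in day 0, 40, 38 and 156 in day 3, 121, 329 and 82 in day 6 and 14, 22 and 22 in day 9. It was thus among the first 329 peaks of every list used, with 56 to 171 reads at its summit, although the peak itself was narrow, with a median of 0.689 kb. The next in rank were members near Pum2, an RNA-binding translational repressor (chr12:8640767-8641749, median percentile 99.7, 49 to 125 reads), and 22.2 kb from Fth1, the ferritin heavy chain (chr19:9953638-9958351, 99.7, 56 to 143 reads). Others of the first 10 lay near Vcpkmt (chr12:69500608-69503808, 99.6), Chd2 (chr7:73618625-73619704, 99.6), Stard10 (chr7:101309631-101310881, 99.5), Ppara (chr15:85663574-85670656, 99.5), Jak1 (chr4:101290873-101294513, 99.4), Anapc16 (chr10:59969289-59975292, 99.2) and Tmem30b (chr12:73481380-73483755, 99.0). The Ppara member, in an intron of the non-coding gene Lncppara, 64.3 kb from the start of Ppara, the nuclear receptor of fatty acid oxidation, was the widest of these 10, with a median of 6.54 kb under peaks.

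A peak in every library did not mean an even level. Over the members the median percentile ran from 34.8 to 99.96, and the median over members of the lowest of their 23 percentiles was 34.4. Within a member, the widest of the 23 libraries had a median of 4.75 times as many bases under peaks as the narrowest. The SD of the rank score over the 23 libraries had a median of 0.66 in members and 0.69 over all 19628 regions with a peak in every list. The rank score is −log2 of the position of the region's strongest peak from the top of its list, less the median over those regions in the library, so that a difference of 1 is a change of position by a factor of 2. The steadiest member was an intronic site of Zfpm1, a cofactor of GATA factors (chr8:122293288-122298001, SD 0.26), at positions 9361 to 21181.5, where tied peaks share their mean position. The least steady was an intronic site of the clock gene Per2 (SD 2.49).

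Libraries differed in depth and number of peaks. The 23 lists held 47448 to 115923 peaks, of which members took 7.03% to 15.0%, and the median member had 18 to 43 reads at its summit, with the lowest members at 5 to 13. Sequenced or mapped reads are not in the lists. A peak at a start of Hmgn2 was in 12 of 12 WT lists and 0 of 12 DKO lists, whereas a start of Hmgn1 had a peak in 24 of 24 lists, which checks nothing about its deletion. Starts of 5 of 8 adipocyte marker genes had a peak in WT day 0 and of 8 of 8 in WT day 9, with none at Adipoq or Cidec on days 0 and 3. Stromal markers had peaks at 6 or 7 of 8, Dlk1 at none. Of immune markers, Cd68 had a start peak in 24 of 24 lists and Cd3e in none, and the 3 WT and 3 DKO lists of day 0 all had one at Ptprc, Adgre1 and Itgam. On day 9 these stood at 1, 1 and 0 of 3 WT lists and 0, 3 and 2 of 3 DKO lists, and Adgre1 kept its peak in 12 of 12 DKO lists. Of endothelial markers, Tek had a peak in 23 of 24 lists and Emcn in none, Pecam1 in all 6 lists of day 0 and 1 of day 9 (DKO), Cdh5 in 6 and 0, and Kdr in 2 WT and 3 DKO lists of day 0, none of days 3 and 6, and 1 WT and 3 DKO lists of day 9. Epithelial and muscle markers had peaks at 0 of 4 starts each in every list.

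By median percentile, on day 6 every DKO library placed the members lower within its list than every WT library did. On days 0 and 9 the difference between group means of that percentile was of the order of the spread between libraries. Counted as the median position from the top of the list, the genotypes were also apart on days 0 and 9, and overlapped on day 3. These positions were 21155 to 22026.5 in WT and 23549.5 to 24448.5 in DKO on day 0. On day 9 they were 17467 to 17823.5 and 18719 to 19054.5. Per library, the median percentile of members was 78.8 ± 1.62 (SD, n = 3) in WT day 0, 79.2 ± 5.74 in day 3, 83.5 ± 0.597 in day 6 and 82.7 ± 1.95 in day 9. In DKO it was 76.5 ± 3.21 (n = 2) in day 0, 73.5 ± 4.21 (n = 3) in day 3, 64.1 ± 11.3 in day 6 and 83.3 ± 0.471 in day 9. The 3 DKO day 6 libraries stood at 71.0, 70.2 and 51.0, and the 3 WT day 6 libraries at 83.5, 82.9 and 84.1. These medians were not tested. Width behaved alike. The median member had 1.12 ± 0.088 kb under peaks in WT day 0, 1.21 ± 0.281 in day 3, 1.48 ± 0.042 in day 6 and 1.38 ± 0.102 in day 9, against 1.13 ± 0.129, 0.970 ± 0.158, 0.752 ± 0.243 and 1.48 ± 0.057 kb in DKO. By library the day 6 values were 1.452, 1.450 and 1.524 kb in WT and 0.881, 0.903 and 0.471 kb in DKO. Constitutive regions near a start went from a mean of 1.15 kb in WT to 0.824 kb in DKO on that day. The DKO day 6 libraries were also those with fewer peaks (74867, 71869 and 47448, against 98503 to 105511 in WT day 6) and fewer reads at the median member's summit (23, 25 and 20, against 35 to 40), and DKO day 6 replicate 3 stood apart from the others. The part of depth in these differences was not tested, and a lower rank in a shorter list and less acetylation per site cannot be told apart in them.

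Region by region, the number of members called between the genotypes depended on the measure. By rank score from column 9 of the lists, which is used here, 9 members were called on day 9 and 94 on day 6, whereas ranking by the fold called 208, 249, 256 and 225 on days 0, 3, 6 and 9, and reads at the summit, a measure added after the data were seen, 8, 8, 162 and 6. The counts by fold and by summit reads are given without direction or the share over all regions, and do not compare members with other regions. Rank scores and widths were compared with limma over all 19628 regions with a peak in every list. Its p-values were Benjamini-Hochberg adjusted, with a threshold of 0.05. By rank score, 22 members were higher (0.557%) and 18 lower (0.456%) in DKO on day 0, against 0.693% and 0.448% of all regions tested. On day 3, 8 were higher (0.202%) and 27 lower (0.683%), against 0.555% and 0.622%. On day 6, 17 were higher (0.43%) and 77 lower (1.95%), against 1.07% and 1.02%, and the median change was −0.22 in members and −0.00 over all regions. On day 9, 7 were higher (0.177%) and 2 lower (0.0506%), against 0.219% and 0.102%. Averaged over the 4 days, 67 members were higher (1.7%) and 196 lower (4.96%), against 2.86% and 2.79%, with a median change of −0.13 in members and 0.00 over all. Without centring each library on its median, the averaged comparison gave 47 higher and 307 lower members, against 2.16% and 4.1% of all regions. On days 0, 3 and 9 the shares called were near or below those of all regions tested, while more members were lower than higher in the comparisons of day 6 and of all days. Without DKO day 6 replicate 3, the day 6 calls fell from 94 to 28. Without WT day 3 replicate 3, a shallow library, the day 3 calls fell from 35 to 17. The direction of these calls and the shares over all regions in these fits are not given here.

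By width, more members were called, and on day 6, relative to the median width of each library, members and regions near a start leaned in opposite directions. On day 6, 204 members were wider (5.16%) and 1123 narrower (28.4%) in DKO, against 20.1% and 12.3% of all regions tested, and with a median change of −0.30 in members and 0.13 over all. Of the constitutive regions near a start, 3655 were wider (23.8%) and 1229 narrower (7.99%). Without centring, the median change over all regions was −0.48 and that of members −0.90, and 0 members were wider and 2679 narrower, against 0.0459% and 45.7% of all regions. Members thus leaned to narrower peaks on both scales, whereas hardly any region of any kind was wider in DKO without centring. Without DKO day 6 replicate 3, 816 members were called in place of 1327, and the share over all regions in that fit is not given here. On day 0, 22 members were wider (0.557%) and 52 narrower (1.32%), against 0.336% and 0.622%, on day 3, 16 and 113 (0.405% and 2.86%), against 0.616% and 1.47%, and on day 9, 6 and 5 (0.152% and 0.127%), against 0.229% and 0.0764%. These counts were 132, 200 and 20 on days 0, 3 and 9 without DKO day 6 replicate 3, which enters them through the common estimate of spread. Uncentred, 0 members were wider and 73 narrower on day 3, against 0.0153% and 1.1% of all regions.

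**Figure D2:**
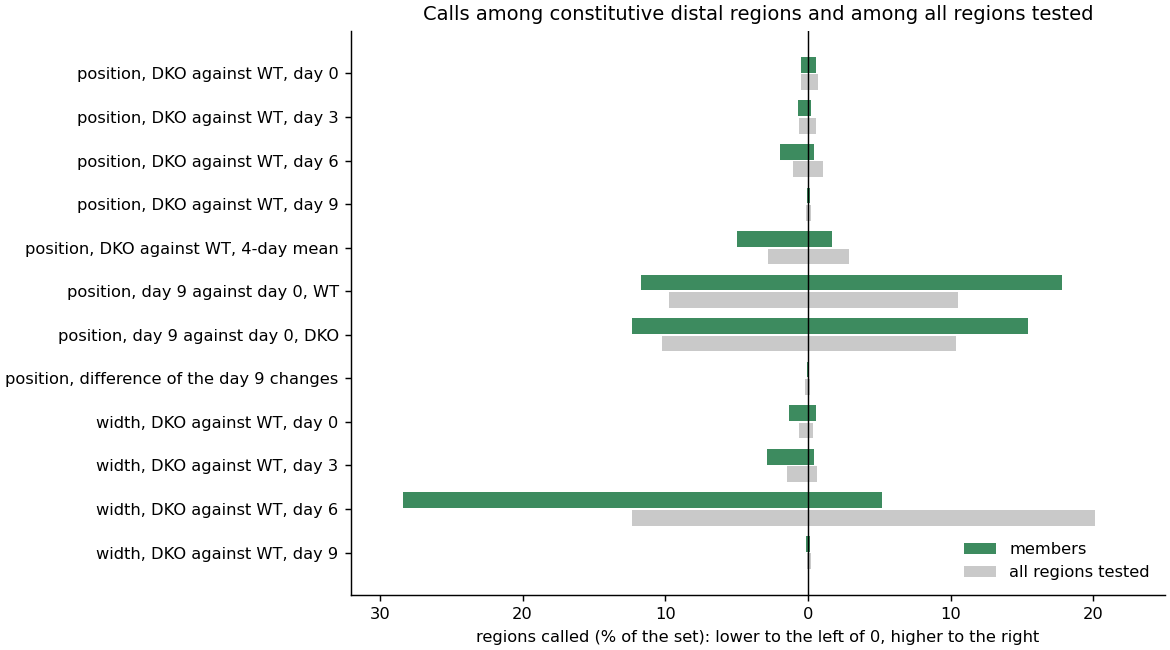
Percentage of members called higher or lower (rank score, 8 comparisons, and width, 4 comparisons), beside the same percentage of all 19628 regions tested. On day 6, 28.4% of members were narrower in DKO, against 12.3% of all regions.

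The site 25.6 kb from Ide, the insulin-degrading enzyme (chr19:37262180-37265254, intergenic), was the member that differed most by rank score between the genotypes on day 9. Its positions in WT were 22862, 24506 and 17727 on day 0, 12697, 10629.5 and 16819.5 on day 3, 4420.5, 6635 and 5504 on day 6 and 5267, 7738 and 5854.5 on day 9. In DKO they were 28596.5 and 21265 on day 0, 2712, 1419 and 4025 on day 3, 1872, 1304 and 1923 on day 6 and 364, 81 and 222 on day 9. From day 3 on, every DKO library placed this site higher than every WT library of the same day, and on day 0 the groups overlapped. Reads at its summit went from 26, 30 and 26 to 57, 65 and 57 in WT and from 37 and 50 to 161, 155 and 133 in DKO. The DKO rank score was higher by 5.05 ± 0.44 (log2, SE) on day 9 (limma adjusted p = 7.15e-07) and by 2.42 on day 3 (adjusted p = 0.00783), and the gain from day 0 to day 9 was larger in DKO by 5.20 ± 0.65 (adjusted p = 0.000843). Its width on day 6, relative to the median of each library, was larger by 0.88 ± 0.14 (adjusted p = 0.000438), and without centring by 0.28 (adjusted p = 0.124), which did not pass the test.

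Of the other members higher in DKO, an intronic site of Tbc1d1, a Rab GTPase-activating protein of glucose uptake (chr5:64342351-64345858), stood at positions 14082.5, 10772 and 10250 in WT day 9 and 1672, 2196 and 1878 in DKO day 9 (difference 2.60 ± 0.35, adjusted p = 0.000342). A site 15.7 kb from Scd1, the stearoyl-CoA desaturase (chr19:44387485-44391007), was higher in DKO on day 6 by 2.90 ± 0.50 (adjusted p = 0.00521). A site 15.9 kb from the cholesterol exporter Abcg1 (chr17:31037051-31041803) was higher on day 6 by 1.72 ± 0.35 (adjusted p = 0.0115), and a site near Prkar2b, a regulatory subunit of protein kinase A (chr12:32093715-32099135), on day 9 by 2.32 ± 0.42 (adjusted p = 0.0167). In the first of these no WT library reached the place of a DKO library.

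The largest difference called on day 6 was at the Irf2 site, where the summit held 153, 138 and 151 reads in WT and 103, 106 and 92 in DKO, and the rank score differed by −3.69 ± 0.83 (adjusted p = 0.0229), since near the top of a list a small number of places is a large change on the log2 scale. Of the other members lower in DKO, the site 28.3 kb from Mmp2, a gelatinase (chr8:92796869-92799017), stood at positions 8988.5, 11595 and 12214.5 in WT day 6 and 40105, 70775 and 42507.5 in DKO day 6, with 46, 39 and 43 against 15, 12 and 14 reads (rank score −2.03 ± 0.33, adjusted p = 0.00272). Its day 3 and day 9 differences did not pass the test (−0.48 and −0.71). The site 22.1 kb from Medag, a gene that promotes adipocyte differentiation (chr5:149385024-149389621), stood at 298, 504 and 683 in WT day 3 and 3273, 4996.5 and 5761 in DKO day 3 (−3.26 ± 0.41, adjusted p = 0.000254), and its day 9 difference was 0.24 (adjusted p = 0.864). The site 13.4 kb from Wasf2, which promotes actin branching (chr4:133115627-133117137), had −1.35 ± 0.18 over the 4 days together (adjusted p = 0.000103), and WT libraries stood above DKO libraries on every day. A site in the Ebf1 neighbourhood, 351.2 kb from its start (chr11:45263319-45265221), had −1.13 ± 0.18 over all days (adjusted p = 0.000797), with positions of 6646.5, 6898 and 9123 in WT day 3 and 39794, 20903 and 27957.5 in DKO day 3. Sites near Klhl8 and Plac8 had −1.23 and −1.13 in the same comparison, and a site near the cytokine gene Lif was lower as well (adjusted p = 0.000801).

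By width, the strongest narrowing on day 6 was in an intron of Fbn1, the microfibril protein fibrillin-1 (chr2:125496162-125499102, nearest start Gm9913). Peaks there covered 2260, 2169 and 2444 bp in the WT day 6 libraries and 243, 160 and 214 bp in DKO day 6 (−2.89 ± 0.21, adjusted p = 1.03e-07). On day 9 they covered 1364, 2036 and 1957 bp in WT and 1781, 1267 and 1491 bp in DKO, which overlapped (−0.35, limma adjusted p = 0.764). The narrowest peaks of the DKO day 6 lists were 155 to 160 bp, so the DKO day 6 widths at this site were near the floor. By rank score the site was not called on day 6 (−0.76, limma adjusted p = 0.291). An intronic site of Adamts2, the procollagen N-proteinase (chr11:50662768-50666577), covered 2942, 3241 and 3377 bp in WT day 6 and 665, 994 and 530 bp in DKO day 6 (−1.57 ± 0.14, adjusted p = 8.62e-07), and 3004, 3045 and 3238 against 3384, 3110 and 2939 bp on day 9. At both sites the groups were apart on day 6 and overlapped on day 9. Sites near Emsy (chr7:98570508-98576292, −1.56 ± 0.12), in Rftn1 (chr17:50123921-50127534, −2.10 ± 0.16) and in Ahnak (chr19:9032239-9035722, −1.72 ± 0.15) were the other 3 of the 5 smallest p-values. Relative to the median of each library, the wider members with the smallest p were those near Ide (0.88), the spermine oxidase gene Smox (1.15), Fam83a (0.65), Ssh1 (1.07) and Grk5 (0.52). Without centring, 0 members were called wider, and these differences were 0.28, 0.54, 0.047, 0.46 and −0.087, none of which passed the test, with the opposite direction at Grk5.

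By rank score, more members were called between day 9 and day 0 than between the genotypes on any single day, and width was not compared between days. In WT, 703 members were higher on day 9 than on day 0 (17.8%) and 462 lower (11.7%), against 10.5% and 9.76% of all regions tested. In DKO, 607 were higher (15.4%) and 484 lower (12.3%), against 10.4% and 10.2%. Uncentred, DKO gave 767 higher and 394 lower members, against 12.9% and 8.41%, where the median over all regions rose by 0.21. The 2 genotypes share no library in these comparisons, but the spread of each region was estimated from all libraries together. A region with little spread is thus called more easily in both. Of the 1165 members called in WT and the 1091 called in DKO, 661 were called in both, which is 56.7% and 60.6% of each, and 660 of these had the same direction (386 higher and 274 lower). Over all 19628 regions, 3974 were called in WT and 4058 in DKO, and 2008 in both, which is 50.5% and 49.5% of each, with the same direction at 1992. In neither genotype were 2356 members (59.6%) called, beside 69.3% of all regions. The change in DKO minus that in WT passed the test at 7 members, with a positive difference at 4 (0.101%) and a negative one at 3 (0.0759%), against 0.158% and 0.168% of all regions tested. Adipocyte marker starts gained peaks over the same days, while of the immune and endothelial marker starts some had peaks in fewer lists on day 9 and others (Cd68, Tek, and Adgre1 in DKO) kept them, as given above, and the part of cell makeup in these changes was not tested.

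The largest rise in WT, and the second largest in DKO after the Ide site, was at Per2, a repressor in the circadian clock. Its intronic site (chr1:91434640-91438785) stood at positions 72078, 39645 and 35767 in WT day 0, 2131, 4760 and 5925 in day 3, 2526, 3373 and 1508 in day 6 and 141, 852 and 470 in day 9. In DKO it stood at 45528 and 39785, then 6586, 5180 and 10606, then 3684, 1164 and 4666, and then 266, 626 and 457. Every library of day 3 or later thus placed the site above every library of day 0. The change was 6.84 ± 0.57 in WT (adjusted p = 1.48e-07) and 6.50 ± 0.64 in DKO (adjusted p = 3.99e-07), and the changes did not pass the test of a difference (−0.33 ± 0.86, adjusted p = 0.912).

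Further rises had small p-values in either genotype. A site 196 kb from Nampt, which makes a precursor of NAD (chr12:32620435-32623389), had 12, 15 and 14 reads at its summit in WT day 0 and 42, 49 and 46 in day 9, and rose by 2.79 in WT and 3.22 in DKO. A site 51.4 kb from Pdk4, a kinase that restrains pyruvate oxidation (chr6:5441925-5444888), rose by 3.05 in WT and 4.60 in DKO, and a site 287.6 kb from the start of Ebf1 (chr11:45199750-45204170) by 3.30 in WT (adjusted p = 1.81e-06). At the Pdk4 site positions went from 49540.5, 47395.5 and 44500.5 to 5972, 6351 and 4012 in WT. Intronic Magi1 and intergenic Galnt15 sites followed in WT (2.98 and 2.81), and sites near Rras2 and Prr5 in DKO (4.79 and 4.20).

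By rank score, the largest fall was at a site 17.8 kb from Plekho2 (chr9:65539131-65544391). It was among the strongest peaks of preadipocytes, at positions 97, 134 and 233.5 in WT day 0 and 54.5 and 243 in DKO day 0, and stood at 4721, 4277.5 and 8117 in WT day 9 and 6147, 6809.5 and 9061 in DKO day 9. The change was −5.33 ± 0.51 in WT (limma adjusted p = 6.05e-07) and −6.12 ± 0.57 in DKO. Near the top of a list a small number of places is a large change on this scale. Mean reads at the Plekho2 summit went from 85.7 on day 0 to 67 on day 9 in WT and from 98.5 to 69.3 in DKO. The mean percentile went from 99.8 to 94.4 in WT and from 99.9 to 93.5 in DKO. A site near Zfp36l1, which destabilises AU-rich mRNAs (chr12:80013651-80015261), went from positions 3751.5, 2733.5 and 2875 to 28353.5, 44498 and 31931.5 in WT (−3.56 ± 0.36, and −4.74 ± 0.40 in DKO). Sites near 1810010D01Rik (−2.98 in WT, −4.58 in DKO) and near the Toll-like receptor gene Tlr1 (−2.89 in WT) fell as well. All of these kept a called peak on day 9, which the choice of members requires.

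**Figure D3:**
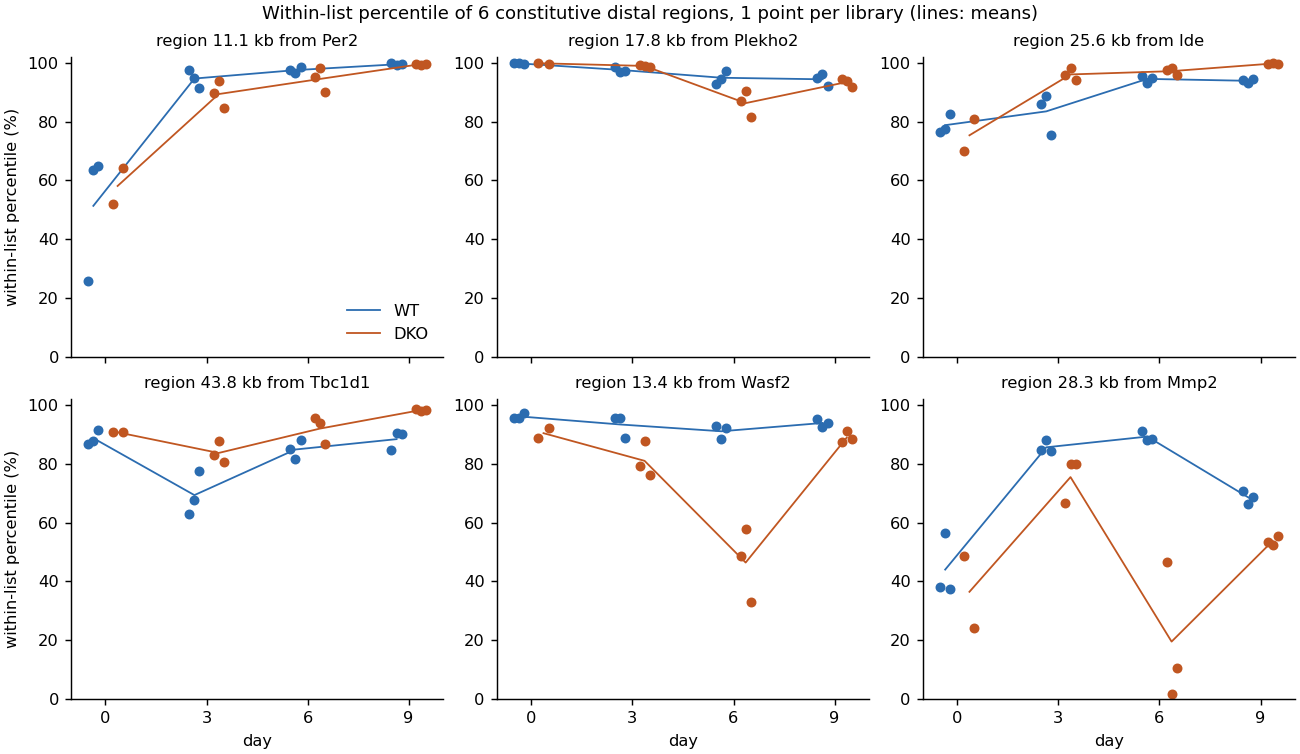
Percentile within the list of 6 members in each library, by day and genotype, on a linear axis. The Per2 site rises and the Plekho2 site falls in both genotypes, and the Ide, Tbc1d1, Wasf2 and Mmp2 sites are those called between genotypes.

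The members of each gene list are described by counts, with no test, beside 17.8% higher and 11.7% lower of all members in WT and 15.4% and 12.3% in DKO. Of all regions tested, 10.5% were higher and 9.76% lower in WT and 10.4% and 10.2% in DKO. Of 75 members near adipogenic transcription factors, 22 were higher and 6 lower on day 9 in WT and 14 and 5 in DKO. Their median changes were 0.67 and 0.56, beside 0.17 and 0.18 over all members and 0.04 and 0.06 over all regions. For Ebf1 alone, 7 of 18 were higher and 0 lower in WT and 6 and 0 in DKO. Members near glucocorticoid response genes were higher for 12 of 27 and lower for 1 in WT and higher for 12 and lower for 2 in DKO, and those of Errfi1 for 6 and 0 of 12 in WT and 6 and 1 in DKO. Matrix genes had 17 higher and 4 lower of 86 in WT and 12 and 0 in DKO, and stromal progenitor genes 6 and 0 of 18 in WT and 1 and 0 in DKO. Brown adipocyte genes had 3 of 6 higher in WT and 4 in DKO, and adipocyte function genes 1 of 8 and 3 of 8, with none lower. The members of Klf9, Nr3c1 and Pdk4 are counted in more than 1 list, so the lists are not separate results. Actin and adhesion genes were divided, with 6 higher and 7 lower of 53 in WT and 5 and 10 in DKO. TGF-beta and BMP genes had 4 higher and 6 lower of 47 in WT and 5 and 8 in DKO, AP-1 and immediate early genes 4 and 3 of 21 and 3 and 2, the Hippo list 0 and 2 of 13 and 2 and 0, the chromatin list 3 and 2 of 14 and 3 and 1, and the ribosomal list 1 and 1 of 8 and 0 and 2. Among single genes, Dapk1 had 8 of 20 higher and 0 lower in WT and 4 and 0 in DKO, Plpp3 7 of 12 and 4, and Lpp 3 of 20 higher and 1 lower in WT and 1 and 1 in DKO.

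**Figure D4:**
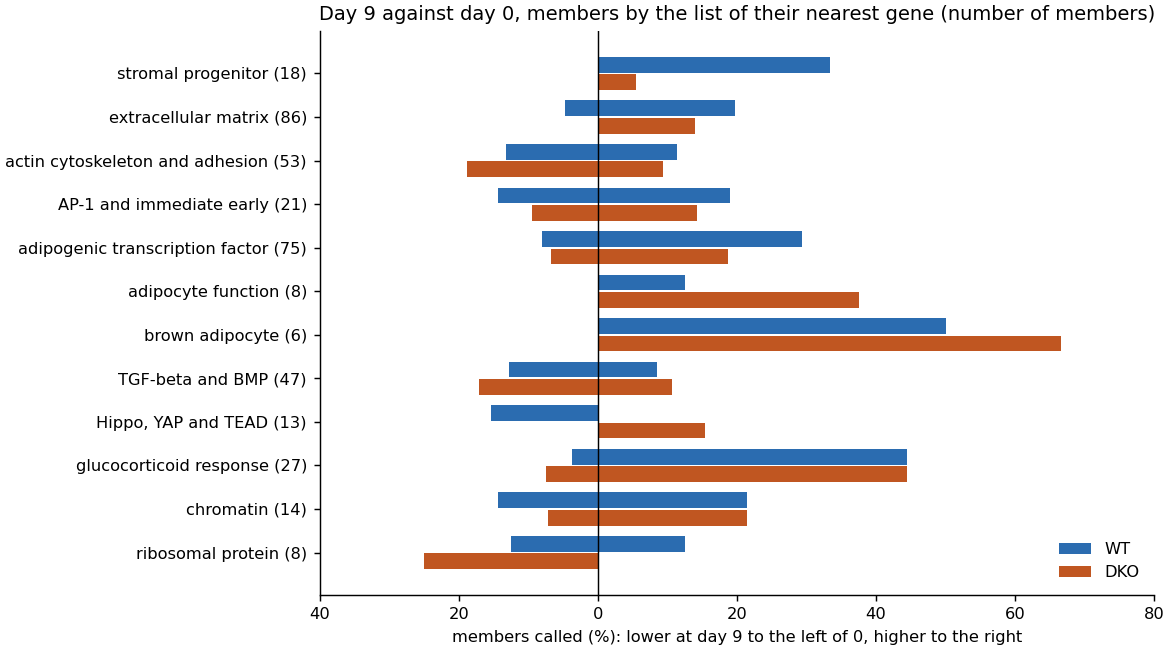
Percentage of members called higher or lower on day 9 against day 0, by list of nearest genes, in WT and DKO. Of 27 members near glucocorticoid response genes, 12 were higher in each genotype, beside 17.8% of all members in WT and 15.4% in DKO.

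By width on day 6, relative to the median of each library, 5.16% of members were wider and 28.4% narrower in DKO, beside 20.1% and 12.3% of all regions, and no test over the lists was made. Of the 86 matrix members 1 was wider and 40 narrower. The counts were 0 and 8 of 18 stromal progenitor members, 3 and 17 of 75 near adipogenic factors, 0 and 17 of 47 near TGF-beta and BMP genes, 1 and 16 of 53 near actin and adhesion genes and 0 and 6 of 14 of the chromatin list. They were 2 and 5 of 13 of the Hippo list, 1 and 4 of 27 near glucocorticoid response genes, 1 and 2 of 21 near AP-1 and immediate early genes, 1 and 1 of 8 near adipocyte function genes and 0 and 1 of 8 near ribosomal protein genes. Of the 6 brown adipocyte members 3 were wider and 0 narrower, and without centring none of the members, these 3 included, was called wider. By rank score averaged over the days, 1 of the 86 matrix members was higher and 8 lower. Of all members 1.7% were higher and 4.96% lower in that comparison, and of all regions 2.86% and 2.79%.

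Hmgn2, one of the deleted genes, was itself the nearest gene of 2 members. The one 25.5 kb from its start (chr4:133939962-133941771) rose by 3.84 from day 0 to day 9 in WT (adjusted p = 0.000103), and its averaged difference between DKO and WT was −0.41 (adjusted p = 0.469).

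By motif, the members called higher in both genotypes on day 9 (386), lower in both (274) and in neither (2356) held the GR letters in 7.25%, 3.65% and 6.07%, the AP-1 letters in 5.44%, 4.74% and 4.63%, the TEAD letters in 9.59%, 10.6% and 12.1% and the RUNX letters in 4.15%, 2.55% and 4.2%. These shares rest on few windows (28 with GR and 21 with AP-1 letters among the 386) and were not tested.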

How the data were processed

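H3K27ac ChIP-seq peaks of 24 libraries were used, and the 16 input libraries were not analysed here. Per the study's methods and the submitters' processing notes, the authors demultiplexed with bcl2fastq 2.17, trimmed with cutadapt 1.18, aligned to mm10 with BWA 07.17 and called peaks in each library with MACS2 2.1.1.20160309. Which input served which list is not given in the sources used here. In the deposited lists, column 7 is the fold enrichment at the summit (a ratio over local background) and columns 8 and 9 are the −log10 p-value and −log10 q-value given by the authors' peak caller, with none under 2.00 for the q-value. They are not counts, so no count model was used.

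Peaks were merged with Python 3.11.15, numpy 2.4.6 and pandas 2.3.3. The rank score and the width (log2 of bp under peaks less the library median) were fitted over 19628 regions and 8 groups with limma 3.58.1 in R 4.3.3. Reads at the summit were recovered from the fold and the p-value, and came out whole (within 0.002 in −log10 p) for 471026 of 471033 summits, so their number is the depth behind each peak. In data simulated for DKO against WT on day 6, the test recovered 0 of 200 changes of 1 and 121 of 200 changes of 2 (log2) among 19628 regions.

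The regions named were the 10 with the highest median percentile, up to 5 called per direction and comparison, the highest of each gene list and motif, the 5 genes with most members (Tgfbr3 and Zeb2 tied with the fifth, and Errfi1 and Plpp3 with the genes after them, were added after values were seen), the extremes of SD and the regions at the limits. Hmgn2 was also added after its values were seen. A region named by the rule and a marker gene are not reported here. Members, lists, motifs and tests were chosen with earlier results of these data known. Alternatives tried were other peak thresholds, columns, scalings, distances, replicate sets and a replicate block.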

Additional observations from a re-analysis of the deposited data

Results flagged for a closer look

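At 7 members the change in rank score from day 0 to day 9 differed between the genotypes by the interaction term of the limma fit. All 7 rest on the 2 libraries kept for DKO day 0. The change at the Ide site was larger in DKO by 5.20 (adjusted p = 0.000843). The change in DKO minus that in WT was 2.96 near Wnt7b, a secreted Wnt ligand (chr15:85609274-85613042, adjusted p = 0.0253), where DKO day 0 stood at positions 15184 and 5811 and WT day 0 at 1824.5, 1308 and 1299, while both genotypes stood between 1513 and 2621 on day 9. The difference was 2.78 in an intron of Atxn7l1 (chr12:33266894-33269934, adjusted p = 0.0311) and 2.89 in an intron of Ltbp1, a TGF-beta binding matrix protein (chr17:75055550-75056922, adjusted p = 0.0408). It was −2.97 near BC005537 (chr13:24791551-24792518, adjusted p = 0.0247), −3.33 near Rbx1, a subunit of cullin ubiquitin ligases (chr15:81521465-81525231, adjusted p = 0.0322), and −2.52 at chr1:135617884-135620044 near Nav1 (adjusted p = 0.038). At the Rbx1 site DKO day 0 stood at 362 and 696.5 and WT day 0 at 3116.5, 4017 and 3135.5, and the day 9 libraries of both genotypes overlapped. At the Ide site the genotypes differed on day 9, and at the Wnt7b, BC005537 and Rbx1 sites on day 0.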

How the results depend on the processing

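The number of members was 373 from the 20000 highest peaks of each list and 1341 when peaks had to cover 25% of the region. The counts of calls below are of members only, without direction or shares over all regions. They show how the counts moved, and not how members differed from other regions. Calls are given in the order of the comparisons, with 40, 35, 94, 9 and 263 members called by rank score on days 0, 3, 6, 9 and over all days, 1165 and 1091 between day 9 and day 0 in WT and DKO, and 7 in the difference of these, and by width 74, 129, 1327 and 11 on days 0, 3, 6 and 9. Ranking by the fold gave 208, 249, 256, 225 and 412 between genotypes and 183 in the difference. Reads at the summit, added after seeing the data, gave 8, 8, 162 and 437 on days 0, 3, 6 and over all days, and 0 in the difference. With −log10 q of at least 5 there were 55 on day 6, 162 over all days, 765 in WT and 4 in the difference, and by width 60 on day 3 and 6 on day 9. Without centring there were 153 on day 6, and by width 13, 73, 2679 and 0. With DKO day 0 replicate 2 included there were 65 on day 0 and 5 on day 9, and a wide peak of that list can lend its value to several regions. Without WT day 3 replicate 3 there were 38, 17, 97, 9, 240, 1194, 1111 and 9, and by width 90, 131, 1418 and 8. Without DKO day 6 replicate 3, added after seeing the data, there were 28 on day 6, and by width 132, 200, 816 and 20. Leaving out each replicate number gave ranges of 0 to 8, 1 to 3, 2 to 10, 1 to 2, 15 to 32, 566 to 681, 389 to 758 and 0 to 1, and by width 19 to 122, 13 to 76, 489 to 852 and 1 to 8, from fewer libraries. Between WT and DKO libraries of a day, correlations of deviations from group means were −0.034 to 0.056 for the same replicate number. For other numbers they were −0.055 to 0.055. The main fits did not pair libraries by number, and pairing across days was not examined. The replicate block gave 31, 30, 81, 10 and 228 between genotypes, 1143, 1039 and 8, and by width 71, 120, 1318 and 6. Among 114 values of named regions, 109 kept their direction and call under the block and 90 without centring, where the Grk5 width on day 6 reversed to −0.087. Without replicate 2, 62 of 114 kept both, and with reads at the summit in place of the position 39 of 74. In these 2 settings 0 reversed, and the rest kept their direction but lost the call. Fits without replicate 1 or 3 leave a single DKO day 0 library, and their calls of named values are not given. The cause of these differences was not tested. Among the settings in which limma called 0 members, 369 had an unadjusted p under 0.05 in the difference from summit reads. For width on day 9 without centring 203 had. With no change at all, a share of about 0.05 of members would fall under this threshold. The counts were not set against that share or against all regions, so they are no sign of missed changes. The simulation, of the rank score on day 6 with all 23 libraries, found 0 of 200 changes of 1 (log2), so small changes may be missed in that fit. Settings with fewer libraries or another measure were not simulated.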
